A study of Mus musculus with 3 samples.

Results

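Collagens are the triple-helical proteins that give tissues their fibrils, networks and filaments, and type IV is the collagen of basement membranes. The genes described here are the mouse collagen chains other than type IV: every gene of the deposited tables whose symbol has the form Col, a number, a and a number, without the 6 type IV chains. This gave 38 chains among 31058 genes. The question asked of them was which class of glomerular cell was the source of each chain, and how the chains differed between the 3 libraries. The study compared glomeruli of male mice, female mice and female mice with deletion of oestrogen receptor alpha, and used droplet sequencing of 3′ gene tags counted by unique molecular identifier (UMI). Each group was 1 library of cells labelled as total cells from the kidney glomerulus. All 3 came from healthy mice of the C57Bl/6 background that carried Pax2.rtTA;TetO.Cre;R26.Confetti, a Pax2-driven, doxycycline-dependent Cre with a colour reporter. All were given doxycycline at an age of 20 days and were traced to 90 days. The groups were male, female, and a female titled RPC-ERαKO whose genotype adds ERalphaKO, called female ERaKO here by its label. With 1 library per group there is no spread between animals, so no difference between libraries was tested, and all intervals given are 95% intervals of counting error only.

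Most collagen molecules are built from chains wound around each other into one helix, either copies of a single chain or a mixture of related chains. Fibril-forming types I, III and V make the banded fibrils of connective tissue. Fibril-associated types such as XII and XIV sit on the surface of those fibrils, and type VI makes beaded filaments beside cells. Type VIII makes networks in vessel walls, types XIII, XXIII and XXV span the cell membrane, and the multiplexins XV and XVIII are carried by basement membranes. In the glomerulus the mesangium, the vessel pole and Bowman's capsule hold such interstitial and membrane-associated collagens, and fibrillar types I and III are known from scarred glomeruli.

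The 3 libraries kept 3224 male, 2849 female and 2464 female ERaKO cells, with medians of 7323.5, 8857 and 8032.5 UMIs. Barcodes with more than 25% mitochondrial UMIs, which were left out, made up 20.97%, 17.7% and 34.0% of the barcodes, and pairs of kept cells with the same barcode numbered 1 to 4 per pair of libraries. Esr1, the targeted gene, gave 84 male, 70 female and 122 female ERaKO UMIs, or 2.65, 2.06 and 4.37 when counts are scaled to 1e+06 UMIs (CPM). A 3′ tag is read from any transcript that keeps its 3′ end and the deleted part is not given in the sources used here, so this does not check the label. Cells were grouped into classes by marker genes with all collagen genes left out of the clustering, and each class name stands for cells that look like that type. The names were given from these markers, so their sums describe the classes and do not check the names. Podocyte markers summed to 21664 to 23532 CPM in the podocyte class and endothelial markers to 10100 to 10771 CPM in the endothelial class. Mesangial markers summed to 11514 to 12019 CPM in the mesangial class. One podocyte cluster was led by the immunoglobulin genes Igha and Igkc beside podocyte genes, and the female podocyte class held 8.57 CPM of haemoglobin and other erythroid genes against 807 in the male and 653 in the female ERaKO library.

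All 38 chains had at least 1 UMI, 19 had at least 100, 8 had 20 to 99 and 11 had fewer than 20. Together they gave 54049 UMIs, 0.0578% of the UMIs of the kept cells, and 3 chains held 85.8% of them. Col18a1 gave 32147 UMIs, Col1a2 gave 11657 and Col15a1 gave 2584. By family, the 2 multiplexins gave 34731 UMIs, the 11 fibril-forming chains 14047, the 6 beaded-filament chains 1670, the 9 fibril-associated chains 1637, the 3 hexagonal-network chains 782 and the 4 transmembrane chains 686. A 3′ tag counts molecules without regard to gene length, but genes differ in how well their 3′ end is captured, so levels are compared below between classes for the same chain. Classes were ranked for a chain only in libraries where they held at least 20 cells, here and below. A class was called the source of a chain when it had the highest CPM of the ranked classes in every library, with at least 10 UMIs in each. Of the 27 chains with at least 20 UMIs, 14 had a source: 4 in an unnamed cluster numbered 9, 3 in mesangial cells, 2 each in parietal epithelial, principal, and smooth muscle and renin cells, and 1 in endothelial cells. The other 13 had no ranked class that led in all 3 libraries with enough UMIs.

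**Figure D1:**
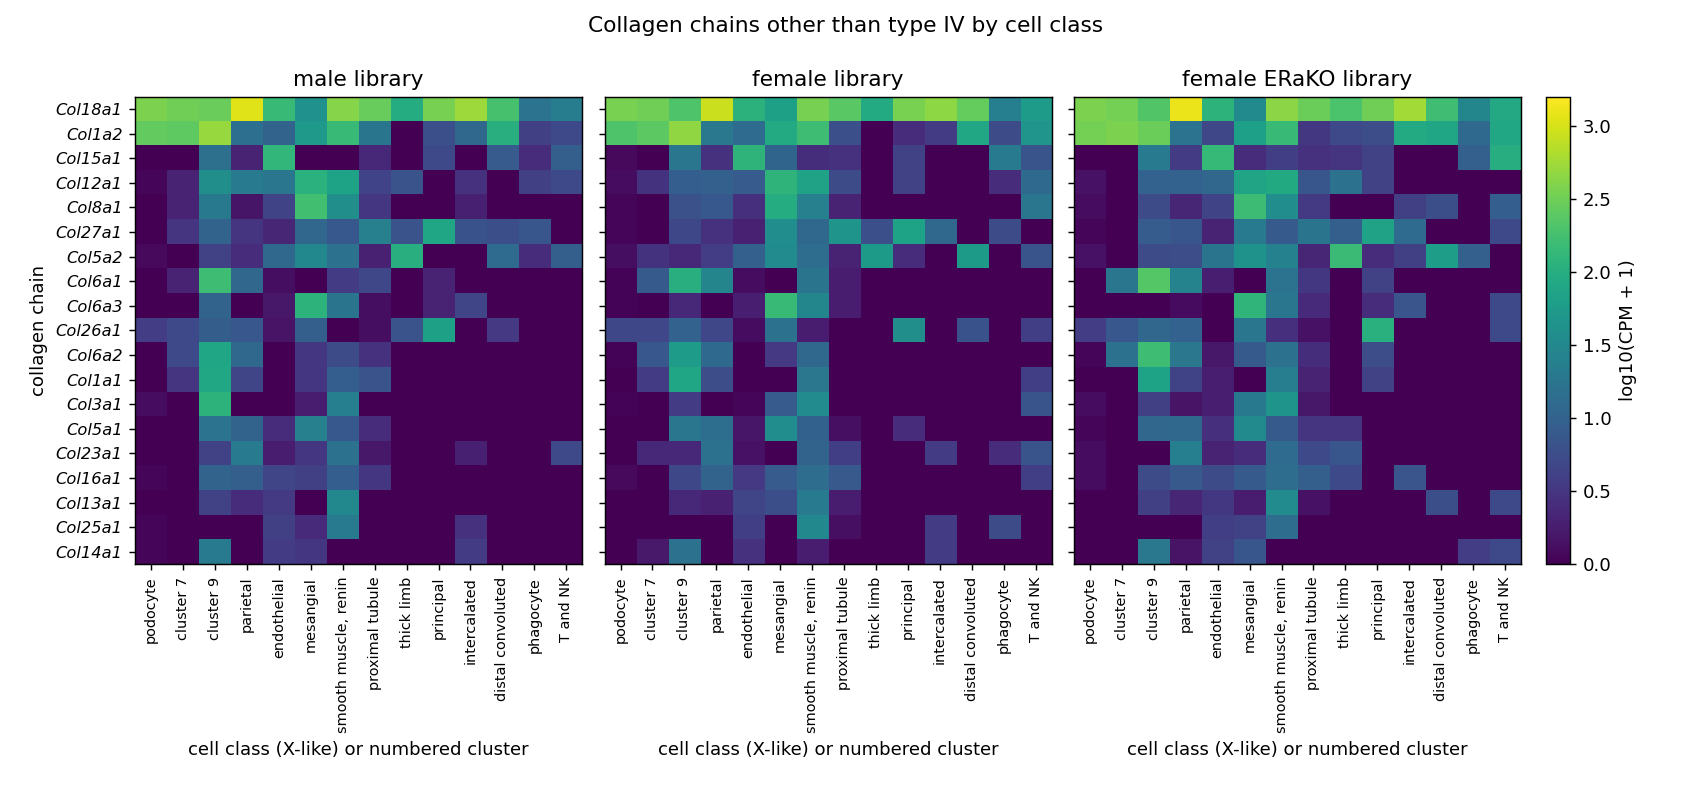
Level of each chain with at least 100 UMIs (rows) in each cell class and library (columns), as log10(CPM + 1) in the colour scale. Rows are bright in different columns: Col15a1 in endothelial cells, Col6a3 and Col8a1 in mesangial cells, Col18a1 in most columns.

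Type I collagen, the main fibril of bone, skin and scar, was represented almost wholly by its Col1a2 chain, and the cells that held most of it were podocytes. Col1a2 lies on chromosome 6 and Col1a1 on chromosome 11, so the chains of this molecule are made from unlinked genes. In podocytes, the epithelial cells that wrap the capillaries, Col1a2 gave 2840 male, 3219 female and 2393 female ERaKO UMIs, which were 71.6%, 73.0% and 72.9% of its UMIs in each library. Its level there was 270.6 CPM (261 to 281), 209 CPM (202 to 216) and 337 CPM (324 to 351). The partner chain Col1a1 had 0 UMIs in the podocytes of all 3 libraries. A count of 0 allows up to 3 UMIs, which would be 0.286, 0.195 and 0.422 CPM, or 0.106%, 0.0932% and 0.125% of the type I UMIs of podocytes. Col1a2 was spread widely over the podocytes: 70.3%, 72.6% and 79.0% of them had at least 1 UMI, and 52.8%, 49.3% and 61.6% after each cell was thinned to 4000 UMIs. Mononuclear phagocytes, which should lack the chain, had a Col1a2 UMI in 2.22%, 4.29% and 2% of cells, with median depths of 6486, 8524.5 and 6344 UMIs against 7784, 9200 and 7418 in podocytes. The podocyte class was made of clusters 0, 1 and 3, and Col1a2 was present in each: 256, 269 and 299 CPM in the male, 216, 196 and 215 in the female, and 312, 349 and 356 in the female ERaKO library. Fibroblast markers, the genes of the classical type I source, summed to less than 1 CPM in the podocytes of every library, with 1 or 2 of 8 markers seen.

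Col1a1 was highest in cluster 9, which gave 53.6% of its male, 64.4% of its female and 42.0% of its female ERaKO UMIs. This was a group of 84 male, 78 female and 86 female ERaKO cells led by Cst12, Igfbp6, Lsp1, Igfbp2 and Ogn. Dcn and Dkk3 were also among its leading genes. No marker list named it: podocyte markers summed to 5013, 6377 and 4231 CPM in it, smooth muscle and renin markers to 4685, 5125 and 9855, parietal markers to 1291, 933 and 1116, and fibroblast markers to 424, 96.5 and 158. Col1a1 gave 52, 58 and 47 UMIs there, or 81.6, 76.7 and 70.6 CPM, and a single cell held 59.6%, 24.1% and 12.8% of them. Col1a2 was also at its male and female maximum in cluster 9, with 509.8, 469 and 305 CPM. Col1a1 was therefore 13.8% (10.5 to 17.7), 14.04% (10.8 to 17.8) and 18.8% (14.2 to 24.2) of the type I UMIs of the cluster, and 34.8%, 23.6% and 43.2% with doublets kept. Over the 3 libraries, 27 of the 39 cells with Col1a1 had Col1a2 (69.2%), against 66.1% of all cells of cluster 9. In smooth muscle and renin cells, which contract the arterioles and release renin, Col1a1 was 5.42% (3.06 to 8.77), 9.82% (6.26 to 14.5) and 13.3% (9.61 to 17.7) of type I, from 15, 22 and 39 Col1a1 UMIs. Cluster 7, led by Pla2g7, Fgl2 and Pamr1 and holding 15960, 15437 and 13999 CPM of podocyte markers, had Col1a2 at 255, 248 and 371 CPM and 2, 4 and 0 Col1a1 UMIs. Mesangial cells had Col1a2 at 50.7, 90.0 and 62.9 CPM with 3, 0 and 0 Col1a1 UMIs. Endothelial cells had Col1a2 at 9.44, 11.98 and 3.79 CPM. In parietal cells the Col1a1 share of type I was as high as in cluster 9, from few counts. It was 21.2% (8.98 to 38.9), 20.8% (7.13 to 42.2) and 18.8% (10.9 to 29.0), from 7, 5 and 15 Col1a1 UMIs. The proximal tubule gave 18, 0 and 5 Col1a1 UMIs.

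**Figure D2:**
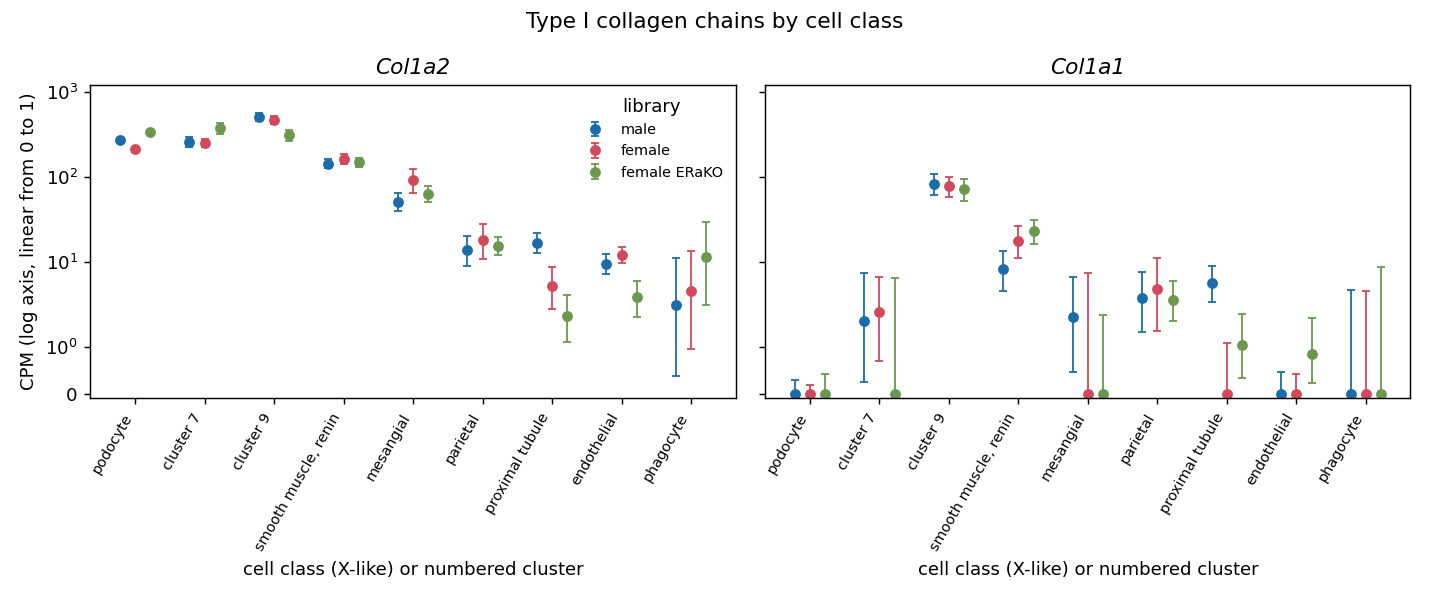
Levels of Col1a2 (left) and Col1a1 (right) in CPM by class on a log axis that is linear below 1, with 1 point per library and its 95% counting interval, or the limit of 3 counts where the count is 0. Col1a2 lies above 200 CPM in podocytes of all 3 libraries while Col1a1 is at 0 there, and Col1a1 is highest in cluster 9.

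The start of Col1a2 is shown because the chain was read in podocytes without its partner. The window is taken from RefSeq on GRCm38.p6, upstream of the RefSeq start, with bases that any GENCODE M21 exon covers left out. GENCODE M21 starts Col1a2 further upstream, at base 4504814 of chromosome 6. By that annotation the window lies inside the gene, between exons. Capitals mark GGGCGG, the core letters of an Sp1-type GC box, searched on both strands.
Col1a2: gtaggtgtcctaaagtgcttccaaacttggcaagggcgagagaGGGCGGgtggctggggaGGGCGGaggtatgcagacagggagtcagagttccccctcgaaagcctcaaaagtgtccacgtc
This is chr6:4505370-4505492, 123 bases on the plus strand, with 2 matches. GGGCGG was found in the 250 bases before the start of 32.9% of 27025 genes and of 18 of the 30 chains in the table. The full oestrogen response palindrome GGTCANNNTGACC was in 0.0629% of those genes and in 0 of the 30 chains, while its partial form GGTCA, which the palindrome contains, was in 34.9% of genes and 13 chains. TATAAA was in 12.97% of genes and 5 chains, and CCAAT was in 34.5% of genes and 9 chains. The table did not hold Col1a1.

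Type VI collagen was split between cell classes by chain. A type VI monomer normally contains a Col6a1, a Col6a2 and a long partner chain, most often Col6a3, and makes the beaded filaments that anchor cells to the matrix. Mesangial cells, the contractile cells between the capillaries, gave 155, 59 and 160 UMIs of Col6a3, at 116, 144 and 124 CPM. They gave 0 UMIs of Col6a1 in all 3 libraries, which allows up to 2.24, 7.30 and 2.33 CPM, and 3, 1 and 9 of Col6a2. Col6a3 was thus 98.1% (94.6 to 99.6), 98.3% (91.1 to 99.96) and 94.7% (90.1 to 97.5) of the type VI UMIs of mesangial cells. Cluster 9 had the reverse mix. Col6a1 gave 103, 79 and 151 UMIs there, at 162, 104 and 227 CPM, and Col6a2 gave 50, 44 and 105, at 78.4, 58.1 and 158 CPM. Col6a3 gave 6, 1 and 0 UMIs in cluster 9, which was 3.77%, 0.806% and 0% of its type VI UMIs. The parietal epithelium, the lining of Bowman's capsule, had the same mix at a lower level: Col6a1 gave 20, 29 and 110 UMIs (10.5, 27.4 and 26.1 CPM), Col6a2 gave 21, 12 and 74, and Col6a3 gave 0, 0 and 1. The intervals of the Col6a3 share of mesangial cells do not overlap those of cluster 9 or of parietal cells in any library.

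Smooth muscle and renin cells held all 3 chains, with Col6a3 at 69.8% (53.9 to 82.8), 51.4% (39.2 to 63.6) and 35.4% (25.1 to 46.7) of type VI. Within that class, Col6a3 was highest in cluster 14, led by Myh11 and Acta2, with 33.8, 95.8 and 42.7 CPM, and Col6a1 was at 6.37, 20.3 and 23.4 CPM in cluster 8, led by Rgs5 and Rergl. Col6a1 and Col6a2 were read in the same cells. Over the 3 libraries, Col6a1 was seen in 77.4% of the 106 cluster 9 cells with Col6a2, against 51.2% of all its cells. In parietal cells these shares were 50.8% and 13.6%, and in smooth muscle and renin cells 31.4% and 4.04%. Cells with more UMIs show both chains more often, and the part of depth in these shares was not tested. The rarer long chains were Col6a6 with 72 UMIs, Col6a5 with 35 and Col6a4 with 8. Col6a6 was a male proximal tubule chain: 61 of its 67 male UMIs came from that class, in 36 cells with at most 4 UMIs in a cell, and the female and female ERaKO proximal tubule gave 1 and 0. Col6a5 gave 27 of its UMIs in the female ERaKO library, 10 in mesangial and 12 in smooth muscle and renin cells.

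**Figure D3:**
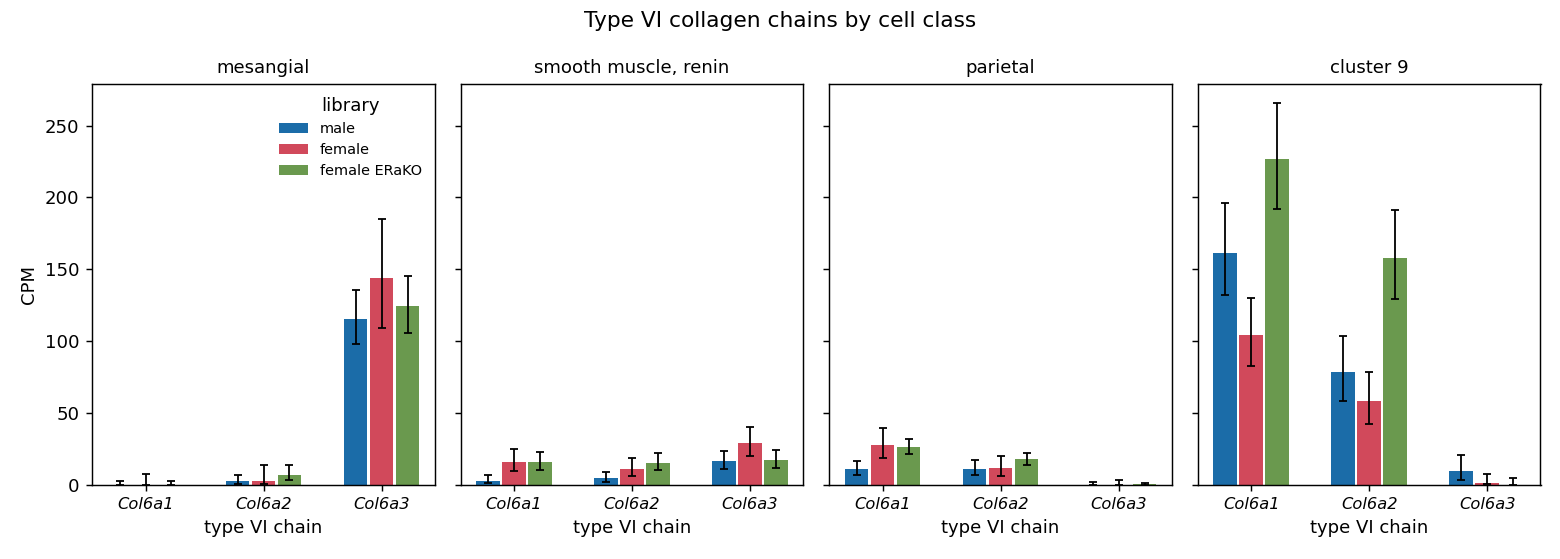
Levels of Col6a1, Col6a2 and Col6a3 in CPM in 4 classes, with 1 bar per library and its 95% counting interval, or the limit of 3 counts where the count is 0. Col6a3 stands at 116 to 144 CPM in mesangial cells where Col6a1 is at 0, and Col6a1 stands at 104 to 227 CPM in cluster 9 where Col6a3 is near 0.

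Col6a2 and Col6a1 are neighbours on chromosome 10, on the same strand and 85.2 kb apart, while Col6a3 lies on chromosome 1 and Col6a6, Col6a5 and Col6a4 lie side by side on chromosome 9. Their upstream windows, from RefSeq on GRCm38.p6 and cut as for Col1a2, are shown because Col6a1 and Col6a2 were read together and Col6a3 apart from them. Capitals mark GGGCGG or its reverse complement.
Col6a1: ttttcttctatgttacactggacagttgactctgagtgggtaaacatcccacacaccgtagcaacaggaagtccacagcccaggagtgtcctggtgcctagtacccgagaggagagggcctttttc
Col6a2: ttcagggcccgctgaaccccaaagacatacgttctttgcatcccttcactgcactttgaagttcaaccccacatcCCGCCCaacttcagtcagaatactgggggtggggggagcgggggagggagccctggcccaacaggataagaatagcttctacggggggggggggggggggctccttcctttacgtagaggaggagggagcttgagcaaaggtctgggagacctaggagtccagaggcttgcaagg
Col6a3: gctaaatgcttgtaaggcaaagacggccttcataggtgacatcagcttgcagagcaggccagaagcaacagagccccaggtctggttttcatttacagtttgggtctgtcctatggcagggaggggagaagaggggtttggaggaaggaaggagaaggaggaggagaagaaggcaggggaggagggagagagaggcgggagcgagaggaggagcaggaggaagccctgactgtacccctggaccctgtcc
These are chr10:76726169-76726294 with 126 bases, chr10:76623631-76623880 with 250 bases and chr1:90843972-90844221 with 250 bases, all on the minus strand. Col6a2 had 1 match on the reverse strand, and these letters were not found in the windows of Col6a1 and Col6a3.

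The multiplexins, basement-membrane collagens whose C-terminal ends can be released as endostatin-type fragments, had contrasting sources. Col15a1 was an endothelial chain. Endothelial cells gave 842, 854 and 649 UMIs, which was 95.1%, 92.6% and 83.5% of the chain, at 130 (122 to 139), 120.3 (112 to 129) and 136 (126 to 147) CPM. The unnamed cluster 26, led by Sfrp2, Dlk1 and Ptn, had Col15a1 at 331, 149 and 162 CPM, but from 16, 19 and 58 UMIs in 2, 7 and 15 cells, too few for ranking. Endothelial markers summed to 13530, 10364 and 11324 CPM in cluster 26 and mesangial markers to 4427, 6110 and 5230, and their part in this level was not tested. Within the endothelium the level of Col15a1 differed between clusters. Cluster 2, led by Kdr, Ehd3 and Cd300lg, genes of fenestrated glomerular capillaries, had 264, 238 and 319 CPM, and cluster 13, led by Calca, Fabp4 and Thbd, had 195, 155 and 246. Cluster 4, led by Tspan8 and Thbs2 and including the arterial gene Sox17, had 4.86, 8.42 and 15.9 CPM. In the female ERaKO library the T and NK class was next of the ranked classes with 97.6 CPM, from 24 UMIs in 3 of 28 cells, and the ratio of the 2 classes there was 1.40 (0.931 to 2.20). Endothelial markers in the T and NK class summed to 860, 319 and 3255 CPM, with 8 of 8 seen in each library, and their part in this level was not tested.

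Col18a1, the parent chain of endostatin, was read in every class named here. Its level was highest in parietal epithelial cells, at 1097, 883 and 1279.5 CPM from 2082, 935 and 5391 UMIs, and this was 2.05, 2.47 and 2.94 times the next ranked class. Podocytes had 373, 354 and 368 CPM, and gave 37.5%, 55.0% and 22.2% of the chain. Smooth muscle and renin cells had 410.5, 349 and 435 CPM, intercalated cells 534, 450.5 and 565 from 52, 14 and 19 cells, too few for ranking in the female and female ERaKO libraries, and endothelial cells 143, 113 and 115. In the proximal tubule Col18a1 stood at 283, 243 and 298 CPM, and nearly all of it came from cluster 12, led by Ugt2b37, Slc4a4 and Cpn1, with 455.5, 588.5 and 712 CPM. In the endothelium, the small cluster 15, led by Esm1, Igfbp3 and Dll4, had Col18a1 at 398, 335 and 536 CPM and Col15a1 at 13.7, 32.9 and 44.1, the inverse of cluster 2, which had Col18a1 at 159, 147 and 151.

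Mesangial cells were also the source of Col8a1, the network collagen of vessel walls, and of Col5a1, a chain that starts and limits fibrils. Col8a1 gave 226, 39 and 197 mesangial UMIs, at 169 (147 to 192), 94.9 (67.5 to 130) and 153 (132 to 176) CPM, and 3.97 to 4.57 times the level of smooth muscle and renin cells, which came next. Its partner Col8a2 had 6 UMIs in all cells and 1, 0 and 0 in mesangial cells. Col8a1 and Col6a3, both mesangial, were seen together in 138 of 370 mesangial cells, and Col8a1 was in 67.3% of cells with Col6a3, against 59.7% of the class. Col5a1 was at 23.9, 36.5 and 32.6 CPM in mesangial cells. This was 1.52 (0.730 to 3.47) and 2.12 (0.943 to 4.85) times cluster 9, the next class in the male and female libraries. Counting error thus does not separate these 2 classes there. In the female ERaKO library it was 3.05 (1.96 to 4.76) times the parietal level, but parietal cells gave the most Col5a1 UMIs, 33.3%. Col5a2 was at 30.6, 34.1 and 42.7 CPM in mesangial cells. The mix of these type V chains also differed by class: Col5a1 was 43.8%, 50% and 42.0% of type V in mesangial cells, 85.7%, 77.8% and 69.2% in parietal cells, and 11.4%, 5.71% and 9.52% in endothelial cells. Col5a3, the third chain of the type, had 69 UMIs in all.

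The FACIT Col12a1, which links fibrils to their surroundings, was shared by mesangial cells, at 109.7, 119 and 72.2 CPM, and smooth muscle and renin cells, at 71.6, 67.8 and 87.7. Within the latter it was highest in cluster 10, the cells led by Ren1 and Akr1b7, with 168, 186 and 162 CPM. The endothelial cluster 15 had 91.8, 43.9 and 84.5 CPM. Col12a1 and Col8a1 were seen together in a part of the smooth muscle and renin cells: 33.1% of cells with Col12a1 had Col8a1, against 16.9% of the class. The part of depth and of the mix of clusters in these shares was not tested. Col3a1, the fibril of elastic tissues and vessel walls, gave 43, 43 and 76 UMIs in smooth muscle and renin cells, at 23.3, 34.3 and 44.1 CPM, and was highest in the muscle cluster 14 with 77.1, 80.7 and 101 CPM. Of its 43 female UMIs in the class, 1 cell held 37.2%. In the male library alone cluster 9 had more, 74 UMIs, of which 50% were in 1 cell and all were in 2.38% of the cells. Its neighbour on chromosome 1, Col5a2, lies 24.6 kb away on the opposite strand and had a different distribution.

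The 3 membrane-spanning chains with at least 100 UMIs had their highest levels of the ranked classes in mural and capsule cells. Col13a1, found at cell contacts, was at 29.8, 19.9 and 34.3 CPM in smooth muscle and renin cells, with 62.0, 66.1 and 54.3 in the renin cluster 10. Col25a1 was at 19.0, 30.3 and 12.8 CPM in the class, and there it lay in cluster 8, with 37.0, 50.1 and 36.0 against 9.31, 3.15 and 2.53 in cluster 10. The members of this pair thus peaked in different mural clusters in each library. Endothelial cells also gave 16, 26 and 11 Col13a1 UMIs, at 2.48, 3.66 and 2.31 CPM. Their Col25a1 UMIs were 20, 21 and 14, at 3.09, 2.96 and 2.94 CPM. In the female library endothelial cells gave more Col13a1 UMIs than any other class, 44.8% of the chain. Col23a1 was at 20.6, 15.1 and 23.0 CPM in parietal cells, with smooth muscle and renin cells 1.35 (0.812 to 2.28), 1.58 (0.701 to 3.66) and 1.89 (1.17 to 3.19) times lower, so the order of these 2 classes is not separated by counting error in the male and female libraries. Of the 16 female parietal UMIs of Col23a1, 1 cell held 31.25%. Col14a1, a FACIT with 107 UMIs, had its highest level in cluster 9 from 13, 11 and 12 UMIs, but 92.3%, 72.7% and 33.3% of those came from 1 cell. The endothelial class gave more Col14a1 UMIs than any other class in each library, with 17, 13 and 15. Col16a1, with 277 UMIs, was spread over endothelial, parietal, proximal tubule and mural cells, at no more than 12.8 CPM in any class that led.

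**Figure D4:**
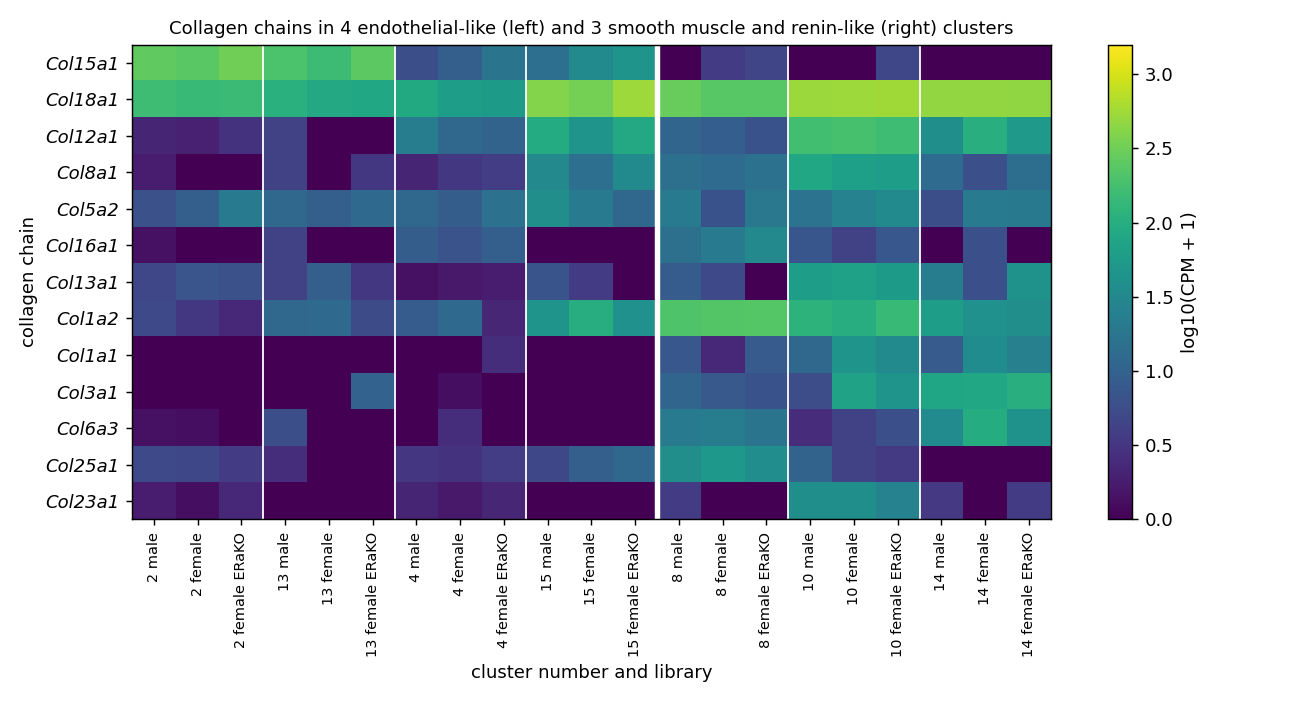
Levels of 13 chains (rows) as log10(CPM + 1) in the colour scale, in 4 endothelial clusters and 3 smooth muscle and renin clusters of each library (columns). Col25a1 and Col13a1 separate mural clusters 8 and 10, and Col15a1 and Col18a1 separate endothelial clusters 2 and 15.

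A last group of chains had high levels in tubule cells that accompany glomeruli. Col27a1, a fibril-forming chain of cartilage, was highest in principal cells of the collecting duct, at 76.7, 71.7 and 68.1 CPM from 75, 46 and 43 UMIs. In the female library the unnamed cluster 24 of 19 cells, led by S100g and Aqp6, had 73.3 CPM of Col27a1 and was too small for ranking. The proximal tubule gave 75, 122 and 78 Col27a1 UMIs, at 23.5, 44.58 and 16.1 CPM, which was 31.4%, 42.5% and 36.1% of the chain. It was the source of Col27a1 under a stricter cell filter, which left too few female principal cells for ranking. Col26a1 was also highest in principal cells, at 65.5, 37.4 and 106 CPM from 64, 24 and 67 UMIs, while podocytes gave 29, 60 and 20 UMIs of Col26a1 at 2.76, 3.89 and 2.82 CPM. The Col5a2 level of 152 CPM in the female ERaKO thick limb class, led by Slc12a1 and including the macula densa genes Nos1 and Pappa2, rested on 74 UMIs in 23 cells. The male and female thick limb had 36 and 11 Col5a2 UMIs, at 102 and 55.0 CPM, in 18 and 8 cells, which is under the number ranked, and so Col5a2 has no source by the rule although this class had its highest level in each library. The female value is next to that of the distal convoluted tubule, at 54.7 CPM from 10 UMIs in 8 cells. Endothelial cells gave more Col5a2 UMIs than any other class, with 70, 61 and 76, or 35.9%, 46.2% and 25.1% of the chain. Principal cells numbered 53, 28 and 40, so tubule levels rest on far fewer cells than those of podocytes.

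The remaining chains were too rare to place. Col19a1 had 56 UMIs and was highest in smooth muscle and renin cells in all 3 libraries, with 22, 8 and 15 UMIs, short of the minimum in the female library. Col20a1 had 42 UMIs, Col7a1, the anchoring fibril of skin, 41, Col11a1 38 and Col17a1, a hemidesmosome chain, 20. Col11a1 was highest in cluster 9 in each library, from 2, 6 and 7 UMIs. The chains under 20 UMIs were Col11a2 (16), Col24a1 (14), Col9a3 (11), Col22a1 (10), Col2a1 (9), Col6a4 (8), Col9a2 (8), Col10a1 (6), Col8a2 (6), Col28a1 (3) and Col9a1 (2). The cartilage chains Col2a1, Col9a1, Col9a2, Col9a3 and Col10a1 were thus all at or near the limit of detection.

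The enzymes and partners that collagen chains need were read from 60 genes in 7 lists. In podocytes the prolyl and lysyl hydroxylation genes P4hb, Plod2 and P3h2 and the C-propeptide cleavage enhancer Pcolce had their highest level of any class in all 3 libraries. Plod2, which prepares lysines for crosslinking, stood at 562, 614 and 526 CPM in podocytes. In mesangial cells the leading genes were the chaperone Serpinh1, the isomerase Ppib, the procollagen protease Bmp1, the integrin Itgb1, the uptake receptor Mrc2, the proteoglycan Bgn and the proteases Mmp2, Mmp14 and Ctsk. Cluster 9 led for Ogn and the crosslinking enzyme Loxl1, smooth muscle and renin cells for Lox, and cluster 7 for Loxl2 and the collagen-binding Sparc. Over all lists, 10 of 14 modification genes, 4 of 8 folding and secretion genes, 3 of 6 cleavage genes, 4 of 5 crosslinking genes, 4 of 9 receptors, 4 of 6 breakdown genes and 7 of 8 fibril-binding genes had the same leading class in all 3 libraries.

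Between the male and female libraries, the chains past the limit of difference were counted class by class and are read against the share of all genes past it in the same class. A difference was counted at 1.5-fold or more on the log2(CPM + 1) scale, for chains with at least 20 UMIs over both libraries in a class. In both comparisons the share of all genes has the same minimum but was not matched to the chains for UMI count. Many chains lie near that minimum, where counting error alone passes the fold more readily, and its part in the counts was not tested. Chains measured and shares of all genes are given for each class, and totals over classes have no such share of their own. Over the 10 classes with enough cells, 12 chain and class pairs were higher in the male and 15 were lower. None of the 3 chains measured in podocytes was among them, where 2.23% of all genes were higher and 1.73% lower, and the median log2 ratio was 0.08 for the 3 chains and 0.01 for all genes. The other comparison below uses the same female library.

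The male mesangial cells had more Col8a1, 169 against 94.9 CPM (log2 ratio 0.82, 0.33 to 1.36), and less Col1a2, 50.7 against 90.0 CPM (-0.82, -1.43 to -0.21). Their Col27a1 was lower as well, at 10.4 against 36.5 CPM (-1.71, -2.97 to -0.65), and Col18a1 at 41.0 against 65.7 (-0.67, -1.37 to 0.04) and Col5a1 (-0.59, -1.54 to 0.38) had intervals that include 0. In all, 1 of 8 chains was higher and 4 were lower, where 11% of all genes were higher and 8.14% lower, and the female sums come from 45 mesangial cells. In smooth muscle and renin cells 3 of 17 chains were higher and 7 lower, where 7.23% and 7.72% of all genes were, with a median log2 ratio of -0.38 for the chains and 0.01 for all genes. The lower chains there included Col6a1, at 2.71 against 15.9 CPM from 5 and 20 UMIs (-2.19, -4.33 to -1.10), Col6a3 at 16.3 against 28.7 (-0.78, -1.57 to -0.08) and Col1a1 at 8.14 against 17.5 (-1.02, -2.16 to -0.10). Col6a2 was also lower by this count (-1.19, -2.82 to -0.01), from 8 and 14 UMIs. Col25a1, Col27a1 and Col16a1 were lower by it, and Col19a1, Col23a1 and Col8a1 higher, each with an interval that includes 0. The clusters made up this class unequally: clusters 8, 10 and 14 held 122, 99 and 67 male and 96, 35 and 28 female cells.

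In the male proximal tubule Col6a6 stood at 19.1 against 0.365 CPM, from 61 and 1 UMIs (log2 ratio 3.88, 3.18 to 11.04). Male Col1a2 was at 16.6 against 5.12 CPM (1.53, 0.83 to 2.66), with 66.0% of its 53 UMIs in 1 cell, and the ratio was -1.07 with doublets kept. Col27a1 was lower, at 23.5 against 44.58 CPM (-0.90, -1.36 to -0.50), and Col16a1 at 2.19 against 6.94 (-1.31, -3.16 to -0.35). In the proximal tubule 2 of 6 chains were higher and 2 lower, with 12.3% and 8.47% of all genes. Different clusters make up this class by library: cluster 16, led by Miox, Akr1c21 and Slc7a13, held 94 male and 3 female cells, cluster 17, led by Aadat and Slc7a12, 1 and 40, and cluster 20, led by Pck1 and Slc22a8, 43 female and no male cells. The female Col27a1 UMIs lay mainly in cluster 20, with 99 UMIs at 155 CPM. In cluster 12, which both libraries fill, Col27a1 was at 13.04 male and 18.8 female CPM.

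Col12a1 was higher in the male in endothelial cells, at 16.9 against 7.33 CPM (1.10, 0.71 to 1.71), in parietal cells, at 19.0 against 8.50 (1.07, 0.08 to 2.40), and in cluster 9, at 37.6 against 7.93 (2.11, 0.92 to 3.83). Cluster 9 also had more Col3a1 (5.01, 3.55 to 8.53) and Col6a1 (0.63, 0.19 to 1.07). The Col3a1 ratio came from 74 male and 2 female UMIs. As given above, the male ones lay in few cells, with 50% in 1 cell, which the counting interval does not cover. In cluster 9, 3 of 10 chains were higher and 0 lower, with 12.6% and 8.16% of all genes. Its fibroblast markers were at 424 male and 96.5 female CPM, and their part in these values was not tested. In endothelium 2 of 10 chains were higher and 0 lower, with 2.82% and 3.55% of genes, the other being Col8a1 at 3.56 against 1.69 CPM. In parietal cells 1 of 8 was higher and 1 lower, with 11.3% and 5.31% of genes. The lower one was Col6a1, at 10.5 against 27.4 CPM (-1.30, -2.28 to -0.51). The T and NK class had Col18a1 lower at 20.8 against 57.6 CPM, from 5 and 20 UMIs, as its only measured chain, where 9.75% of genes were higher and 24.9% lower. This ratio of -1.43 turned to 0.48 under a stricter cell filter, podocyte markers in the class were at 283 against 1517 CPM with 8 of 8 seen in both libraries, and their part was not tested. Cluster 7 had 0 of 2 chains past the fold in either direction, with 6.41% of genes higher and 6.81% lower, and phagocytes 0 of 1, with 6.05% and 20%.

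Between the libraries labelled female ERaKO and female, the most precisely measured difference was that of Col1a2 in podocytes. Its level was 337 against 209 CPM, a log2 ratio of 0.69 (0.61 to 0.77) from 2393 and 3219 UMIs. It was higher in each podocyte cluster, and the share of podocytes with a UMI after thinning was 61.6% (58.1 to 65.0) against 49.3% (46.6 to 52.1). The male library, at 270.6 CPM, lay between the others. It was 1 of 3 chains measured in podocytes, where 2.99% of all genes were higher by this count and 3.57% lower. Col18a1 did not pass it, at 368 against 354 CPM. The crosslinking enzyme Loxl2 stood at 325 against 199 CPM in the same cells (0.70, 0.63 to 0.78), Sparc at 4048 against 2976 (0.44, 0.42 to 0.47), Plod2 at 526 against 614 (-0.22, -0.28 to -0.17), and over the 38 measured pathway genes 4 were higher and 1 lower. Erythroid genes in podocytes moved with this difference, at 653 against 8.57 CPM, as did the share of barcodes left out for mitochondrial UMIs, at 34.0% against 17.7%, and their part was not tested.

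In cluster 9 the chains Col6a1 and Col6a2 were higher and Col1a2 lower. Col6a1 was at 227 against 104 CPM (1.11, 0.72 to 1.53) and Col6a2 at 158 against 58.1 (1.42, 0.92 to 1.98), while Col1a2 was at 305 against 469 (-0.62, -0.88 to -0.37, and -3.02 when doublets were called at the default rate) and Col5a1 at 10.5 against 17.2 (-0.66, -2.27 to 0.72). Col1a1 was at 70.6 against 76.7 (-0.12, -0.71 to 0.46). In all, 2 of 8 chains were higher and 2 lower, where 10.9% and 8.44% of all genes were. Smooth muscle and renin markers in cluster 9 were at 9855 against 5125 CPM, and their part was not tested. In mesangial cells Col8a1 was at 153 against 94.9 CPM (0.68, 0.19 to 1.22) and Col12a1 at 72.2 against 119 (-0.72, -1.24 to -0.19). Col18a1 was at 32.6 against 65.7 CPM there (-0.99, -1.74 to -0.26), Col27a1 at 20.2 against 36.5 (-0.82, -1.82 to 0.17) and Col3a1 at 18.6 against 7.30 (1.24, -0.37 to 3.73). The last 2 turned to 0.47 and -0.54 with libraries clustered separately. These were 2 of 10 chains higher and 3 lower, with 12.5% and 8.75% of all genes. Of the mesangial pathway genes, the protease Mmp2 was at 299 against 144 CPM (1.05, 0.66 to 1.48).

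In smooth muscle and renin cells Col25a1 was at 12.8 against 30.3 CPM (-1.18, -2.07 to -0.45), Col13a1 at 34.3 against 19.9 (0.75, 0.08 to 1.52), Col5a2 at 24.4 against 12.8 (0.88, 0.07 to 1.86) and Col6a3 at 16.8 against 28.7 (-0.74, -1.53 to -0.02). These and Col27a1 made 2 of 17 chains higher and 3 lower, with 6.65% and 11.5% of genes, and medians of 0.32 for the chains and -0.07 for all genes. The cells were divided 81, 110 and 55 over clusters 8, 10 and 14, against 96, 35 and 28 in the female library. Col25a1 within cluster 8 was at 36.0 against 50.1 CPM, and Col13a1 within cluster 10 at 54.3 against 66.1, the opposite direction to the class. In endothelium Col5a2 was at 16.0 against 8.59 CPM (0.82, 0.39 to 1.41), and Col16a1 and Col8a1 were above 1.5-fold with intervals that include 0. Endothelial Col1a2 was at 3.79 against 11.98 CPM (-1.44, -2.48 to -0.92), from 18 and 85 UMIs, but 1.22 with doublets kept and 0.45 with cells thinned to 4000 UMIs. Podocyte markers in endothelium were at 1395 against 1867 CPM. This was 3 of 10 chains higher and 1 lower, with 3.72% and 5.96% of genes.

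In the proximal tubule Col27a1 was at 16.1 against 44.58 CPM (-1.41, -1.90 to -1.05) and Col1a2 at 2.27 against 5.12 (-0.90, -2.46 to 0.07), which made 2 of 6 chains lower and 0 higher, with 6.89% and 7.78% of genes. Both libraries filled clusters 12, 17 and 20, with 90, 86 and 55 female ERaKO and 38, 40 and 43 female cells. Cluster 16 held 36 and 3. Within cluster 20 Col27a1 was at 69.97 against 155 CPM, and within cluster 12 at 13.9 against 18.8. In parietal cells Col27a1, Col26a1 and Col6a2 were higher, 3 of 12 chains, with 10.5% of all genes, and each interval included 0. None of the 12 was lower, with 6.44% of genes. Col6a2 turned to -0.37 with libraries clustered separately. The female side of these 3 rested on 2, 4 and 12 UMIs. Col18a1 in parietal cells, at 1279.5 against 883 CPM, did not reach 1.5-fold. Cluster 7 had 0 of 2 chains past the fold, with 6.52% of genes higher and 13.5% lower, and its Col1a2 was at 371 against 248 CPM. Phagocytes had 0 of 1, with 9.8% and 19.5%.

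**Figure D5:**
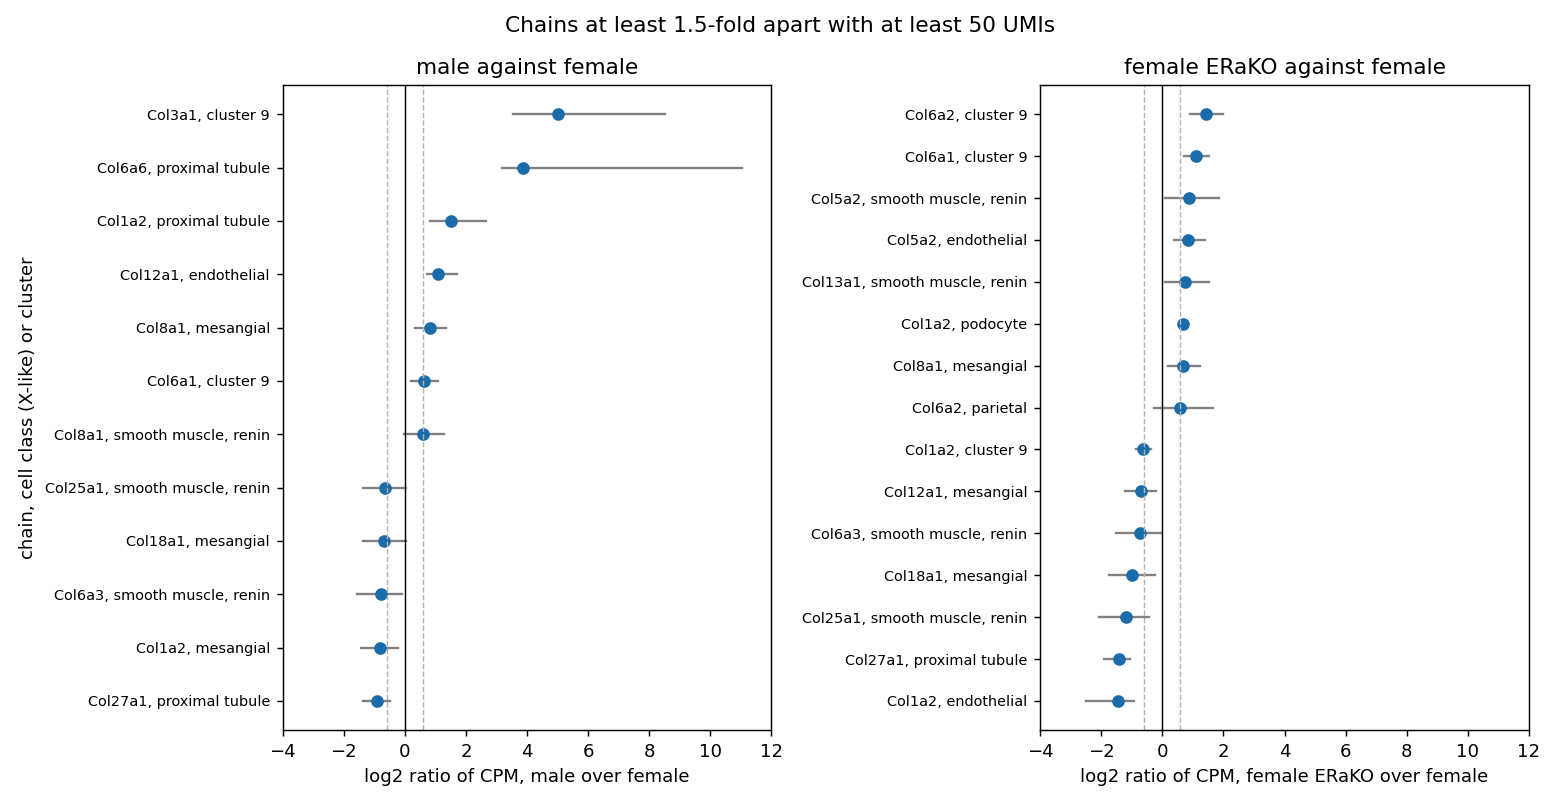
Log2 ratio of CPM for male over female (left) and female ERaKO over female (right), for chains and classes at least 1.5-fold apart with at least 50 UMIs over both libraries. Points are ratios, bars their 95% counting intervals, and dashed lines the 1.5-fold limits. Col1a2 in podocytes, at 0.69 on the right, has the narrowest interval of those drawn.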

How the data were processed

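The authors deposited raw UMI counts per gene and cell, with no normalisation, in lists of barcodes already filtered to cells by a rule not given in the sources used here. Per the labels' protocols these are 10x 3′ libraries read on a NextSeq500, and the tools were STAR 2.7.5a and Cell Ranger 6.1.2 with mm10, per the submitters' processing notes. The libraries held 44585342 male, 44942380 female and 47522141 female ERaKO UMIs in 4244, 3555 and 3986 barcodes.

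A cell needed 500 genes or more and a mitochondrial share of up to 25%. Doublets called by the Scrublet method of scanpy 1.11.5 were removed (109, 51 and 149). The expected doublet rate of 0.06 was set after the default of 0.05 called only 4 female cells. Kept cells were scaled to 10000 UMIs, log-transformed and reduced to 30 components of 2000 variable genes without collagens, then clustered with leidenalg 0.10.2 at resolution 1 and 15 neighbours. A cluster was named from 17 marker lists when its score was at least 1 and led the next by 0.75, with at least 3 markers 2-fold up. The naming minima were set, and an erythroid list left out, after clusters were seen. Differences from the study may come from these rebuilt names.

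Counts of a class and library were summed and scaled to 1e+06 UMIs (CPM). Groups were those of the labels. Classes were ranked by level where they held at least 20 cells. Log2 ratios carry a pseudocount of 1 CPM, for classes with at least 30 cells in both libraries, and each interval is the exact conditional one for the count ratio without it. Levels have exact Poisson intervals and shares exact Clopper-Pearson intervals, all at 95%. The ratios and their intervals were run on class sums simulated with Poisson counting error only. That simulation held no variation between cells or libraries, so it could not test the intervals against either. Chains with at least 100 UMIs are named with their values, rarer ones with their totals, and chains at least 1.5-fold apart are named in comparisons. Of each pathway list the 4 genes with most UMIs were eligible. The members and lists were chosen with earlier results of these data known. Positions are from GENCODE M21 on GRCm38, the assembly mm10 names, and 30 of 38 chains matched the RefSeq promoter table. Python 3.11.15, pandas 2.3.3, scipy 1.17.1, numpy 2.4.6, matplotlib 3.10.9 and anndata 0.12.19 were used, with edgeR 4.0.16 for TMM factors as an alternative. Other alternatives were the clustering, filters, doublets, thinning, pseudocount and count minimum.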

Additional observations from a re-analysis of the deposited data

Results flagged for a closer look

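The ratios of 3 chain and comparison pairs passed 1.5-fold in opposite directions in a pair of classes of the same comparison, each with an interval that left out 0, and none of these differences was tested, since each group is 1 library. Col1a2 for female ERaKO over female was 0.69 in podocytes and -1.44 in endothelial cells, a difference of 2.13, and the endothelial value reversed under alternatives given below. Col1a2 for male over female was 1.53 in the proximal tubule and -0.82 in mesangial cells, a difference of 2.34, and the proximal tubule value, with 66.0% of its male UMIs in 1 cell, was -1.07 with doublets kept. Col6a1 for male over female was 0.63 in cluster 9 and -2.19 in smooth muscle and renin cells, a difference of 2.82.

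Collagen chains were also read in barcodes left out of every comparison. Barcodes called doublets held 776 chain UMIs in the male, 435 in the female and 1761 in the female ERaKO library, which was 595, 513 and 731 CPM, against 568, 503 and 680 CPM in kept cells. Barcodes removed by the gene and mitochondrial limits held 2147, 1619 and 2955 chain UMIs, or 185, 160 and 172 CPM.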

How the results depend on the processing

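No paired analysis was possible because each group is 1 library. Depth was too low to place 11 of 38 chains, which had fewer than 20 UMIs. With a source class found for 14 chains, the count was 8 with libraries clustered separately and 9 with cells thinned to 4000 UMIs. Col6a3, Col8a1, Col25a1, Col15a1 and Col18a1 kept their source in 10 of 10 alternatives, Col13a1 in 9, Col5a1 in 5, Col23a1 in 6 and Col14a1 in 4. Col6a1, Col6a2 and Col1a1 kept cluster 9 in 8. They had no source with libraries clustered separately or with classes assigned cell by cell. Classes assigned cell by cell come from the marker lists and hold no numbered cluster, so that setting could not test cluster 9 as the source. Col27a1 and Col26a1 kept theirs in 8: both had none after thinning, and under the stricter filter the proximal tubule led for Col27a1 and no class for Col26a1. The 10% mitochondrial limit of that filter lies below the medians of principal cells, 15.9%, 13.8% and 12.6%. It left under 20 of the 28 female principal cells, too few for ranking. That setting could therefore not test principal cells as the source. Shares of all genes past 1.5-fold were taken only in the main setting, so the counts under alternatives below have no such share beside them. With no minimum, a few UMIs can be enough to pass the fold. Of the 12 pairs higher and 15 lower in the male, 7 and 5 were counted at a minimum of 50 UMIs and 49 and 55 with no minimum, and 7 were lower after thinning. Of the 13 higher and 11 lower in the female ERaKO library, 8 and 7 were counted at 50 UMIs and 57 and 37 with no minimum. The higher count was 22 with libraries clustered alone, 20 under the stricter cell filter (1000 genes or more, a mitochondrial share of up to 10%), 27 with doublets kept and 21 without the top cell of each chain, and the lower count was 7 without the top cell and 6 after thinning. The Col1a2 ratio of podocytes stayed between 0.59 (thinned) and 0.79 (erythroid list used for names).

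The Col1a2 share of podocytes was 70.3%, 72.6% and 79.0% without thinning and 35.4%, 32.7% and 42.6% at 2000 UMIs, for male, female and female ERaKO. With doublets kept, Col1a1 was 34.8%, 23.6% and 43.2% of type I in cluster 9 and Col6a3 was 0% of type VI in female ERaKO parietal cells. With classes assigned cell by cell, Col1a1 was 2.42% of type I in male smooth muscle and renin cells and Col6a3 63.8% of type VI in female ones. Among male over female ratios, Col18a1 of T and NK cells reversed to 0.48 under the stricter filter, Col1a2 of the proximal tubule to -1.07 with doublets kept, and Col5a1 of mesangial cells to 0.012 with libraries clustered alone. Among female ERaKO over female ratios, Col1a2 reversed in endothelium to 1.22 with doublets kept and 0.45 after thinning, and in the proximal tubule to 0.98 with doublets kept. With libraries clustered alone, Col27a1 and Col3a1 of mesangial cells reversed to 0.47 and -0.54 and Col6a2 of parietal cells to -0.37. The cause of these changes was not tested, except that higher and lower count minima test fewer or more chains. Of 674 log2 ratios under alternatives, 640 kept their direction and size within the interval, and of 750 levels 608 did. The 640 include 27 ratios at a minimum of 50 UMIs and 51 with no minimum, which could not change. Ratios and levels that were missing under an alternative were not counted. TMM and median-of-ratios factors moved all genes by over 0.1 only in the male T and NK and phagocyte classes, by 0.11 to 0.19.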
